A study of Mus musculus with 11 samples.

Results

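The 8 genes Rps6ka2, Hoxd11, Emp2, Sox12, Pou4f1, Casr, Tmtc2 and Adad1 are not usually associated with T cells, and they were selected on measured RNA values, because their RNA was more than 8-fold higher after 2 h of T cell stimulation. They are 8 of the 21957 genes in the count table. The choice used the RNA of the same libraries, and the footprint counts were known when it was made, so the RNA changes and footprint ratios of these genes are given as descriptions with no test. The working name of the group held that these RNAs lacked ribosome footprints, and a share of footprints below the share of RNA was measurable for 1 of the genes with none. Rps6ka2 had 0 footprints where its share of the RNA would give 35.4. Hoxd11, Emp2, Casr and Tmtc2 also had 0 footprints after stimulation, but their RNA shares would give only 0.472 to 2.78, so fewer footprints than their RNA share were not detectable at this depth. Sox12, Pou4f1 and Adad1 had 3, 2 and 1.

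The cells were primed OT1 CD8 T cells of the mouse, which carry a transgenic T cell receptor for an ovalbumin peptide. One group was left at rest (T0), and the other was activated for 2 h with beads that carry antibodies against CD3 and CD28. Cells of both groups then received cycloheximide, an inhibitor of translation elongation, for 10 min. There were 3 RNA libraries of each group, and footprint libraries of 3 resting samples and of stimulated replicates 2 and 3. A stimulated footprint replicate 1 was not analysed here. The labels do not say whether replicates were separate cultures or animals, so p-values measure only the spread between these samples, which may be technical. In bulk samples such as these, fewer cells of a type and less RNA per cell cannot be told apart.

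Ribosome profiling sequences the stretches of mRNA that ribosomes shield from nuclease, so a messenger that is being translated leaves footprints in its coding sequence in proportion to its ribosomes. RNA that is made but not translated, such as nuclear RNA or a transcript that lacks a usable reading frame, leaves few or none. Activated T cells switch on cytokine genes within hours through transcription factors of the NFAT, AP-1 and NF-kappaB families. The 8 genes are better known for other roles. Rps6ka2 encodes the ribosomal S6 kinase RSK3, which acts downstream of ERK. Hoxd11, Sox12 and Pou4f1 encode DNA-binding transcription factors of development, of the limb and kidney, the nervous system and sensory neurons respectively. Emp2 encodes a 4-pass membrane protein of epithelia, and Casr the calcium-sensing receptor of the parathyroid and kidney. Tmtc2 encodes a protein of the endoplasmic reticulum, and Adad1 an RNA-binding protein of male germ cells.

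RNA libraries held 21658263 to 39346699 counts and footprint libraries only 11136 to 23641, or 85433 footprints in all. A gene with a count of 0 in a stimulated footprint library is bounded by 3 counts, or 144 CPM in replicate 2 and 127 CPM in replicate 3, where CPM are counts scaled to the library total. Messages of the 8 T cell markers, among them Cd3e and Cd8a, summed to 2484 to 2822 CPM in unstimulated and 1831 to 2957 CPM in stimulated RNA. Marker lists of B cells, myeloid cells, erythroid cells, neurons, epithelium, germ cells and fibroblasts each summed to at most 25.4 CPM in any RNA library, and none of their genes was at 0 in all RNA libraries. Of the tested markers of those lists, 2 to 5 per list, none was called higher after stimulation and 1, an erythroid marker, was lower. Over all genes tested 3.58% were higher and 4.68% lower, so with so few markers nothing is read from these counts. Median log2 changes, stimulated minus unstimulated, were 0.575 (epithelium) to 1.22 (germ cells), except for -0.0241 for erythroid cells. Over all genes tested the median was 0.391. Olfactory and vomeronasal receptor genes, which T cells are not known to use, differed between libraries of the same group. Their 1474 genes summed to 278, 1813 and 378 CPM in unstimulated replicates 1, 2 and 3, and to 2619, 2084 and 820 CPM in the stimulated ones. Unstimulated replicate 2 and stimulated replicates 1 and 2 thus carried the most such RNA.

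The promoters of Rps6ka2, Hoxd11 and Emp2, the members with the largest RNA changes, are shown to let their sequence be compared. They are the 250 bases before an annotated start, from RefSeq on GRCm38.p6, read 5′ to 3′ on the gene's strand. Rps6ka2 is shown at chr17:7169865-7170114 on the plus strand, before a start that lies inside the annotated span of the gene. Hoxd11 is shown at chr2:74679308-74679557 on the plus strand, before the more upstream of its 2 listed starts, and Emp2 at chr16:10313969-10314218 on the minus strand. Capitals mark matches, on either strand, to the core letters of 6 motifs.
Rps6ka2: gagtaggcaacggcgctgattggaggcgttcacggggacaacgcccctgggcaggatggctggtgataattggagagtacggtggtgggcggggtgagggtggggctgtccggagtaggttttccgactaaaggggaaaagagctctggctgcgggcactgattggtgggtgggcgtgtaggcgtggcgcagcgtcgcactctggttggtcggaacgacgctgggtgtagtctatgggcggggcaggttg
Hoxd11: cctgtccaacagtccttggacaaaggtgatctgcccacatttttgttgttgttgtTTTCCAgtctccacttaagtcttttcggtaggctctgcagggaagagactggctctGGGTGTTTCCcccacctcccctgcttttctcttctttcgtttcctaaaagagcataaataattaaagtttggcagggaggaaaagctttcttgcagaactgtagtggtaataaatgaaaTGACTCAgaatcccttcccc
Emp2: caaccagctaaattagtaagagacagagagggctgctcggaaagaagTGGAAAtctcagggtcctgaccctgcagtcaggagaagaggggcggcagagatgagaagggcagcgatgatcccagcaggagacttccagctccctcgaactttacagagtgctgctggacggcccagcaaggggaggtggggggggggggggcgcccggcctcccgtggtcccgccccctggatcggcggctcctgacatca
The letters searched were TGGAAA for NFAT, TGANTCA for AP-1, for NF-kappaB 3 G, 2 free bases, 3 T and 2 C, TGACGTCA for the cyclic AMP response element, GCGNGGGCG for EGR factors and TATAAA for the TATA box. No match was found in the Rps6ka2 sequence. Hoxd11 held, from left to right, an NFAT match on the opposite strand, an NF-kappaB match and an AP-1 match. Emp2 held 1 NFAT match.

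Of the 8 genes 7 had a listed promoter, 8 promoters in all. NFAT letters were present upstream of 4 of those 7 genes, Hoxd11, Emp2, Casr and Tmtc2, and in 18.6% of all 32817 listed promoters. AP-1 and NF-kappaB letters were present upstream of Hoxd11 alone among the 7, and in 6.75% and 1.41% of all promoters. The cyclic AMP response element, EGR and TATA letters were in none of the 8 promoters, and in 1.55%, 4.70% and 12.4% of all promoters. The guanine and cytosine content was 78.0% for Pou4f1, 74.4% for Sox12, 63.2% for Rps6ka2, 62.8% for Emp2, 57.2% for Tmtc2 and 48.8% for Casr. It was 44.8% and 60.4% for the starts of Hoxd11, and 53.2% ± 11.6 (SD) over all promoters. The 7 genes therefore shared neither one of these motifs nor one base composition. A match is a run of letters and was not tied to binding here.

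All 8 genes had almost no RNA at rest and at least 10-fold more of it, on the fitted scale, after stimulation. Levels are CPM scaled by the trimmed mean of M values (TMM), without correction for gene length, so levels of different genes are not compared. Where genes are named as the most abundant, this is only a rank by CPM used to pick them. Changes are stimulated minus unstimulated on the log2 scale, with the standard error of the edgeR fit. The limit of 8-fold is a log2 change of 3, which 39 of 18886 genes tested in RNA exceeded, or 0.207% of them. Since this limit chose the 8 genes, nothing is read from that share. Just outside it were Sphk1 at 2.99, Cish at 2.99 and Klhl18 at 2.98, and just inside it Rhag at 3.0002, Ier3 at 3.04 and C2cd4d at 3.17. The least raised of the 8, Adad1, was at 3.63.

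Rps6ka2 (ENSMUSG00000023809, chr17:7088971-7303315, plus strand), the RSK3 kinase gene, had the largest change. Its RNA was at 2.53, 5.39 and 3.22 CPM in unstimulated replicates 1, 2 and 3 and at 639, 885 and 1041 CPM in the stimulated ones. The lowest stimulated library was 119 times the highest unstimulated one. The mean went from 3.71 ± 1.49 to 855 ± 203 CPM (SD, n = 3 per group), a log2 change of 7.86 ± 0.38 or 233-fold. This gene alone made up 0.0797% of all stimulated RNA counts. The 8 genes together made up 0.0903%, 0.113% and 0.114% of the counts of stimulated replicates 1, 2 and 3.

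The 3 transcription factor genes differed in how far they were raised. Hoxd11 (ENSMUSG00000042499, chr2:74679558-74687016, plus strand) was at 0.189, 1.09 and 0.382 CPM at rest and at 39.0, 42.3 and 60.3 CPM after stimulation, a log2 change of 6.51 ± 0.41 or 91.3-fold. Its annotated span overlaps that of Hoxd10, which had mean levels of 0.226 CPM at rest and 0.544 CPM after stimulation. Sox12 (ENSMUSG00000051817, chr2:152393611-152398046, minus strand) was at 1.18, 2.21 and 1.34 CPM at rest. After stimulation it was at 77.9, 94.8 and 106 CPM, a log2 change of 5.91 ± 0.27 or 59.9-fold. Pou4f1 (ENSMUSG00000048349, chr14:104461675-104468118, minus strand) was at 0.402, 0.859 and 0.668 CPM at rest and at 18.8, 30.03 and 34.2 CPM after stimulation. Its log2 change was 5.45 ± 0.30, or 43.8-fold. For each of these 3 genes every stimulated library lay more than 20-fold above every unstimulated one.

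The membrane protein genes covered a wide range. Emp2 (ENSMUSG00000022505, chr16:10281749-10313968, minus strand), the epithelial membrane protein gene, was at 0.284, 2.31 and 0.668 CPM at rest and at 53.0, 68.1 and 79.8 CPM after stimulation, a log2 change of 6.04 ± 0.50 or 65.6-fold. Casr (ENSMUSG00000051980, chr16:36490585-36562141, minus strand), the calcium-sensing receptor gene, was at 0.496, 1.19 and 0.334 CPM at rest and at 7.63, 13.6 and 12.9 CPM after stimulation. Its log2 change was 4.10 ± 0.46, or 17.2-fold. Tmtc2 (ENSMUSG00000036019, chr10:105187663-105574479, minus strand) was at 0.615, 2.91 and 0.764 CPM at rest and at 15.9, 21.6 and 23.7 CPM after stimulation, a log2 change of 3.89 ± 0.47 or 14.8-fold. Its annotated span overlaps the genes Gm46241 and Gm15666. For Casr and Tmtc2 the gap between the groups was narrower than for Emp2, with the lowest stimulated library 6.42, 5.48 and 22.9 times the highest unstimulated one in the order Casr, Tmtc2, Emp2.

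Adad1 (ENSMUSG00000027719, chr3:37063656-37111512), the germ cell gene, was at 0.425, 1.88 and 0.406 CPM at rest and at 11.03, 11.4 and 10.4 CPM after stimulation. Its log2 change was 3.63 ± 0.53, or 12.3-fold. The SD of the stimulated libraries of Adad1 was 4.38% of their mean, against 15.4% for Sox12 and 28.8% for Pou4f1. The annotated span of Adad1 overlaps the pseudogenes Gm12582 and Gm12583.

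**Figure D1:**
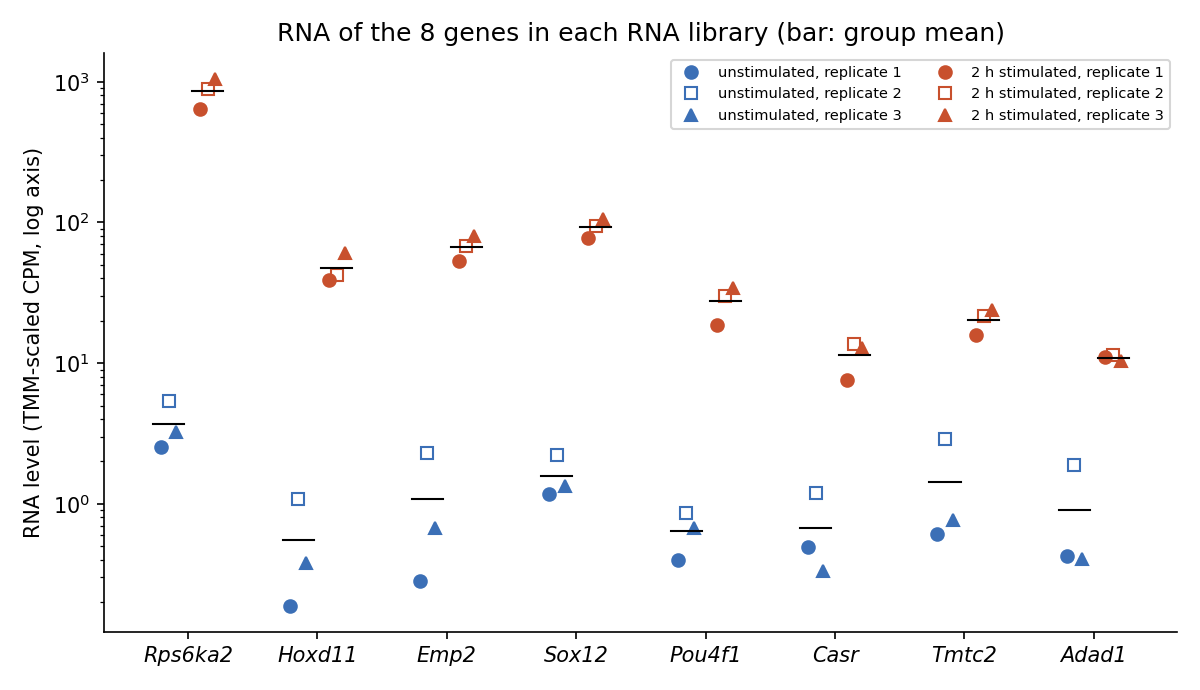
RNA level of each of the 8 genes (TMM-scaled CPM, log axis) in the 3 unstimulated (blue) and 3 stimulated (red) RNA libraries, with a black bar at each group mean. The groups do not overlap for any of the genes, and the unstimulated replicate 2 is the highest blue point in all 8.

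The libraries of a group also had a shared order. Unstimulated replicate 2 was the highest unstimulated library for 8 of 8 genes, and it was also the unstimulated library with the most olfactory and vomeronasal receptor RNA. Stimulated replicate 1 was the lowest stimulated library for 7 of 8 genes, the exception being Adad1, while it had the most receptor RNA of the stimulated libraries. The median log2 change of the 1258 receptor genes tested was 1.25, of all genes tested 0.39, and of the 8 genes 5.68. Of the receptor genes 1 was called higher and 1 was over 8-fold. Without unstimulated replicate 2 their median was 2.60, with 1153 of 1300 called higher and 308 over 8-fold. With the 3 libraries richest in receptor RNA left out together, the log2 changes were 8.05 for Rps6ka2, 7.26 for Hoxd11, 6.93 for Emp2, 5.95 for Sox12, 5.54 for Pou4f1, 4.65 for Tmtc2, 4.49 for Casr and 4.19 for Adad1. That refit kept 1 stimulated library, replicate 3, and unstimulated replicates 1 and 3. It dropped the unstimulated library that was highest for 8 of 8 genes and the stimulated one that was lowest for 7 of 8. Changes at least as large as with all libraries thus followed in part from which libraries were kept. The part of receptor RNA in the changes was not tested.

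Footprints were set against the number expected if each gene held the same share of footprints as of stimulated RNA. The expected number is the mean RNA share of the 3 stimulated libraries times the total of each footprint library, and the intervals are exact 95% Poisson intervals of the observed count. They cover counting error only, and reads of one molecule may be counted more than once. Of the 8 genes 0 passed the filter on low counts in footprints. The 256 genes that passed, hold none of them. Of those 256 genes 24 or 9.38% changed between T0 and 2 h, 5.86% higher and 3.52% lower.

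Rps6ka2 had 0 footprints in each of the 5 footprint libraries. Its RNA share would give 16.6 in stimulated replicate 2 and 18.8 in stimulated replicate 3, or 35.4 in both. A count of 0 has an upper limit of 3.69, so the footprint share was at most 0.104 of the RNA share. At rest its RNA share would give only 0.160 footprints, so the count of 0 there is uninformative. The kinase RNA thus reached 855 CPM with no footprint in either stimulated library.

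The other members without stimulated footprints had too little RNA for such a statement. Emp2 had 0 footprints against 2.78 expected, Hoxd11 0 against 1.96, Tmtc2 0 against 0.849 and Casr 0 against 0.472. The upper limit of 3.69 counts exceeded the expected number for each of these 4 genes. Hoxd11 had 1 footprint at rest, where its RNA share would give 0.0237. Emp2, Casr and Tmtc2, like Rps6ka2, had none in any of the 5 footprint libraries.

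The remaining 3 genes did have footprints after stimulation. Sox12 had 1 in replicate 2 and 2 in replicate 3, against 3.88 expected, a ratio of 0.773 (0.160 to 2.26), and 1 footprint at rest. Pou4f1 had 2, both in replicate 2, against 1.14 expected, a ratio of 1.75 (0.212 to 6.32). Adad1 had 1, in replicate 3, against 0.462 expected, a ratio of 2.16 (0.0548 to 12.1). For all 3 the interval included a ratio of 1.

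Summed over the 8 genes there were 6 footprints after stimulation, 3 in each library, against 47.0 expected. The ratio was 0.128 (0.0469 to 0.278). Without Rps6ka2 the other 7 genes had the same 6 footprints against 11.5 expected, a ratio of 0.520 (0.191 to 1.13), whose interval includes 1. The low ratio of the sum therefore came mainly from Rps6ka2, since the other 7 genes held only 24.6% of the expected footprints. At rest the 8 genes had 2 footprints against 0.455 expected.

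**Figure D2:**
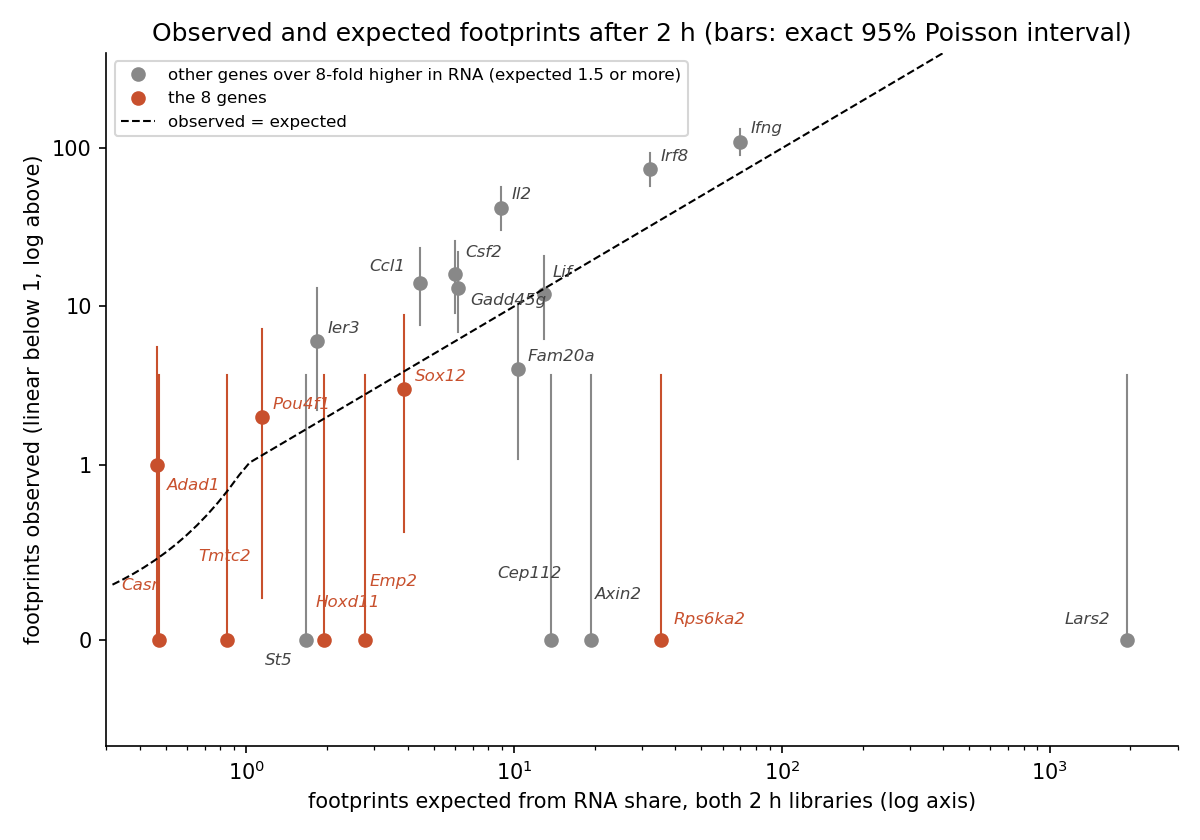
Footprints observed (linear below 1, log above) against footprints expected from RNA share (log axis), both summed over the 2 stimulated footprint libraries, for the 8 genes (red) and the other genes over 8-fold higher in RNA with 1.5 or more expected (grey). Vertical bars are exact 95% Poisson intervals of the count and the dashed line marks equality. Rps6ka2, Axin2, Cep112 and Lars2 lie at 0 with their whole bar below the line, while the bars of the other 7 red genes reach it.

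The genes most like the 8 by the same limit are the other 30 with a log2 change over 3 and at least 1 CPM in stimulated RNA. The 5 most abundant of them differed sharply in footprints. Ifng, the interferon gamma gene, had 110 against 70.0 expected (ratio 1.57, 1.29 to 1.89), and Irf8, a transcription factor gene, had 74 against 32.2. Lars2, the mitochondrial leucyl-tRNA synthetase gene, had 0 against 1936, Axin2, a Wnt pathway inhibitor gene, 0 against 19.3, and Cep112, a centrosomal protein gene, 0 against 13.8. Rps6ka2 was thus 1 of 4 raised genes with more than 10 expected footprints and none observed. The other raised genes with more than 10 expected, Ifng, Irf8, Lif and Fam20a, had 110, 74, 12 and 4. Over all genes, 5.80% of those with 8 to 16 expected had none, 7.47% with 16 to 32 and 6.45% with 32 to 64.

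The 30 other genes summed to 300 footprints against 2128 expected, a ratio of 0.141 (0.125 to 0.158), and without Lars2 to 300 against 192, a ratio of 1.56 (1.39 to 1.75). Of the 30, 11 had a footprint and 19 had none, while over all 21957 genes 7861 had a footprint and 14096 had none. Among the 19, only Lars2, Axin2 and Cep112 had more expected than the upper limit of 3.69 for a count of 0. The next, St5, had 1.67 expected, so the number of genes at 0 is not read as a trait of raised genes. The 8 T cell marker genes had 196 footprints against 95.8 expected, a ratio of 2.05 (1.77 to 2.35). The 7 members other than Rps6ka2, at 0.520 (0.191 to 1.13), had an interval that lies below those of the T cell markers and of the raised genes without Lars2. It includes 1, however, and so does the interval of each of the 7 taken singly. The interval of their sum does not include the 1.25 of all genes without Gm10800, Gm10801, Gm20594 and Lars2. Of the 300 footprints of the raised genes 110 were of Ifng and 74 of Irf8, while Axin2 and Cep112 had 0. The comparisons with the T cell markers and the raised genes are descriptions, since the sets were chosen with the counts known, and no deficit of the 7 genes is read from them.

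How often a gene has no footprint depends on how many are expected, so the 8 genes were placed among all genes of similar expectation. Between 0.25 and 0.5 expected, where Casr and Adad1 lie, 65.6% of 1362 genes had 0 footprints. Between 0.5 and 1, the bin of Tmtc2, 52.6% of 1614 had none, and between 1 and 2, the bin of Hoxd11 and Pou4f1, 37.7% of 2114. Between 2 and 4, the bin of Emp2 and Sox12, 22.3% of 2009 had none. A count of 0 for Casr, Tmtc2, Hoxd11 or Emp2 is therefore shared by many genes of the same expectation. Summed over the genes of these bins, in the same order, the ratio was 2.00, 1.75, 1.46 and 1.36. The median ratio of single genes was 0, 0, 0.974 and 0.936.

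Rps6ka2 stands in a bin where 0 is uncommon. Between 32 and 64 expected footprints, 4 of 62 genes or 6.45% had none, and of the 63 genes expected at least as many as Rps6ka2, 10 or 15.9% had none, itself included. The other 9 are Gm10800, Lars2, Gm10801, Gm21738, Ccdc107, Rpsa, Eif4a1, Gm10717 and Rps12. Rpsa and Rps12, which encode ribosomal proteins, and Eif4a1, an initiation factor gene, were also at 0 at rest with 66.1, 31.7 and 30.3 expected. Of these other 9, the RNA change passed the test for Lars2 and not for the other 8. No test is given for Rps6ka2, which was chosen on its RNA change. A count of 0 was thus found for Rps6ka2 and Lars2, and also for genes of the translation machinery whose RNA change did not pass. How reads that match several genes were counted is not given in the sources used here, and its part in the counts of 0 was not tested.

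**Figure D3:**
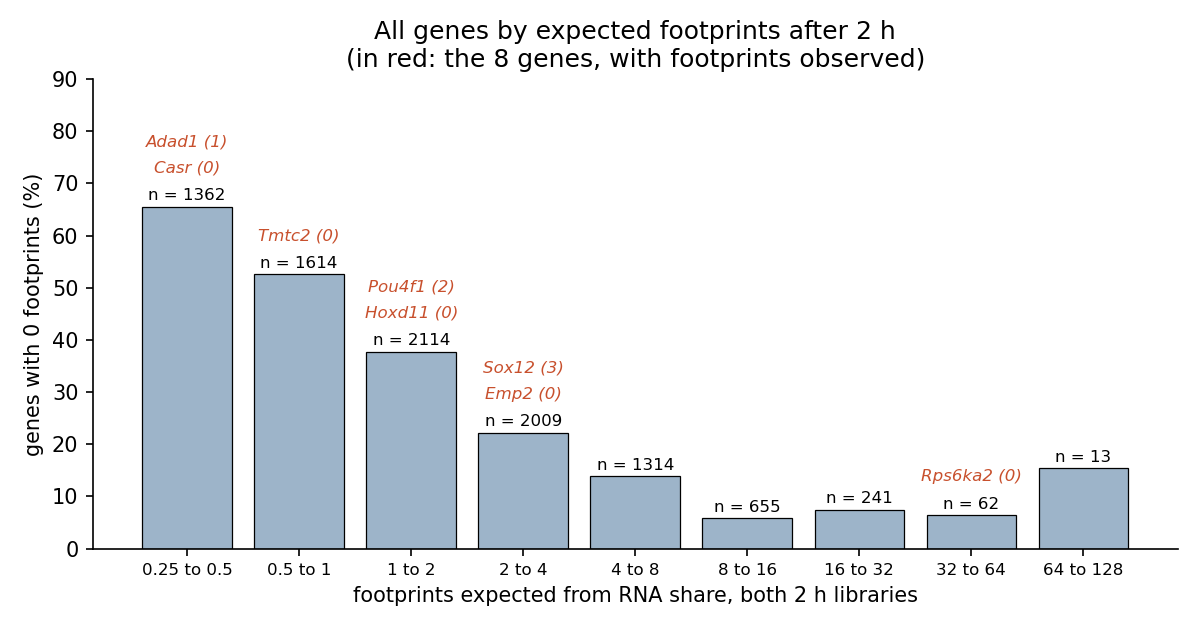
Share of all genes with 0 footprints in the 2 stimulated libraries (bars, %) by the number of footprints expected from RNA share, with the number of genes above each bar. The 8 genes are written over their bins with their observed footprints. The bars stand at 65.6% for 0.25 to 0.5 expected, at 6.45% for 32 to 64, the bin of Rps6ka2, and at 15.4% for the 13 genes of the last bin drawn. Genes with still more expected, such as Lars2, are not drawn.

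Relatives of the 8 genes by family were mostly not called. Of 33 listed relatives 30 were tested, 1 was higher, 1 was lower and 28 did not pass, so 6.67% were called against 8.26% of all 18886 genes tested, 3.58% higher and 4.68% lower (edgeR quasi-likelihood test, Benjamini-Hochberg adjusted p under 0.05). None was over 8-fold higher, and the largest log2 change was 1.82 ± 1.04 for Hoxd1. The median log2 change of the relatives was 0.99, against 0.39 over all genes and 1.25 over the receptor genes. Without unstimulated replicate 2 the median of the relatives was 1.53, with 15 of 30 called higher and 10 lower. It was 0.20 with the 3 libraries richest in receptor RNA left out and -0.37 with DESeq2, which gave an adjusted p for 14 relatives. The part of receptor RNA in the median was not tested.

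Of the kinases related to Rps6ka2, only Rps6ka5 passed the test in RNA. Rps6ka6 was at 0.882 ± 0.727 CPM at rest and 1.80 ± 1.05 CPM after stimulation, and did not pass. Rps6ka3 (RSK2) was at 130 ± 12.8 CPM at rest and 92.8 ± 15.5 CPM after stimulation, and Rps6ka1 (RSK1) at 119 ± 5.34 and 117 ± 34.8 CPM (SD, n = 3 per group). Neither of these passed. Rps6ka3 was called lower with library totals (edgeR adjusted p = 0.00187) and with DESeq2 (adjusted p = 0.0125). It was also called lower without unstimulated replicate 2 (edgeR adjusted p = 2.41e-06) or stimulated replicate 3 (0.00306). Rps6ka1 was called lower only without unstimulated replicate 2 (edgeR adjusted p = 0.0181). Rps6ka5, which encodes the related kinase MSK1, fell from 40.9 ± 1.30 to 23.2 ± 3.35 CPM, a log2 change of -0.82 ± 0.15 (edgeR adjusted p = 0.00694), with an adjusted p of 0.0844 without stimulated replicate 2. Rps6ka3 had 11 stimulated footprints against 3.87 expected, and Rps6ka1 had 0 against 4.84. At rest Rps6ka3 had 2 footprints against 5.63 expected and Rps6ka1 had 3 against 5.15. Stimulated footprint counts of 0 and above expectation thus both occurred among the kinases of this family.

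Of the other families, Emp1 was at 131 ± 11.3 CPM at rest and 124 ± 23.2 CPM after stimulation, with 7 footprints against 5.16 expected. Emp3 was at 90.3 ± 3.93 and 59.0 ± 12.6 CPM, with 8 against 2.45, and its log2 change of -0.61 ± 0.19 did not pass (edgeR adjusted p = 0.0676). Emp3 was called lower in 7 of 12 alternatives, among them those without unstimulated replicate 2 (adjusted p = 1.11e-06) or stimulated replicate 3 (0.000817). Sox4, a SoxC gene like Sox12, was at 1.67 ± 0.848 and 2.76 ± 0.856 CPM. Adarb1, an adenosine deaminase gene related to Adad1, rose from 7.79 ± 0.252 to 13.5 ± 2.07 CPM, a log2 change of 0.79 ± 0.18 (edgeR adjusted p = 0.0180). The Adarb1 call did not hold with unstimulated replicate 1 left out (adjusted p = 0.150), with unstimulated replicate 3 (0.223), stimulated replicate 1 (0.0808) or stimulated replicate 2 (0.255) left out, or under RLE scaling, no filter and DESeq2. Hoxd13, the most abundant listed relative of Hoxd11, was at 0.418 ± 0.498 and 0.703 ± 0.480 CPM. Adar, of the family of Adad1, was at 162 ± 8.84 and 163 ± 48.6 CPM. Gabbr1, related to Casr, was at 28.3 ± 0.621 and 21.4 ± 2.64 CPM, Tmtc4 at 24.5 ± 0.744 and 25.4 ± 4.53 CPM and Pou4f2 at 0.270 ± 0.284 and 0.874 ± 0.317 CPM, and none of these passed. Gabbr1 was called lower with library totals (edgeR adjusted p = 0.000324) and without unstimulated replicate 2 (4.31e-06), among others. Without that replicate Adar and Tmtc4 were also called lower and Pou4f2 higher.

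**Figure D4:**
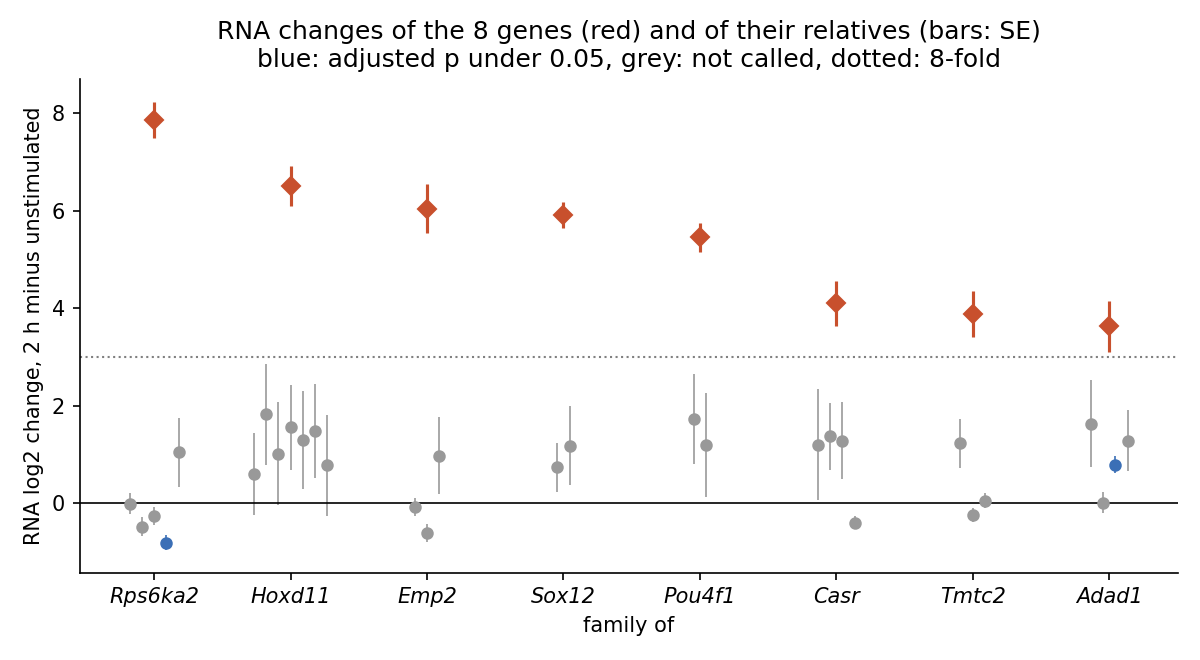
RNA log2 change of each of the 8 genes (red diamonds) and of the tested relatives of its family (circles, blue where the adjusted p was under 0.05), with standard errors. The dotted line marks 8-fold, above which only the 8 genes lie.

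Neighbouring genes on the chromosome were described within 500 kb of each member, a distance chosen after the data were seen. Of 98 such genes described here 72 were tested, 9 were higher and 3 lower, with a median log2 change of 0.33, against 3.58% higher, 4.68% lower and a median of 0.39 over all genes tested. The count depended on single libraries. Without unstimulated replicate 2 it was 27 higher and 17 lower of 80, without stimulated replicate 3 it was 10 and 12 of 81, and without any 1 of the other 4 libraries 5 higher and 0 or 1 lower. Among the 9, the call of Sytl3, 351 kb from Rps6ka2, was lost in 7 of 12 alternatives, and that of Cetn4, 197 kb from Adad1, in 5 of 12. The nearest genes of Rps6ka2 were at log2 changes of -0.51 ± 0.40 (Rnaset2b) and 1.09 ± 0.89 (Tcp10a), and Hoxd12 beside Hoxd11 at 1.48 ± 0.96. Atf7ip2 beside Emp2 was at 1.52 ± 0.82, Nrsn2 and Zcchc3 beside Sox12 at 1.03 ± 1.08 and 0.20 ± 0.41, Cd86 beside Casr at -0.18 ± 0.25 and Mettl25 beside Tmtc2 at 0.43 ± 0.15. Ednrb and Rbm26, the nearest to Pou4f1 although more than 500 kb away, were at 1.58 ± 0.75 and 0.42 ± 0.18, and none of these genes passed. Socs1, a cytokine signalling inhibitor gene 470 kb from Emp2, rose by a log2 change of 1.95 ± 0.24 (edgeR adjusted p = 0.000716), and Bcl2l1, a survival gene 361 kb from Sox12, by 2.35 ± 0.22 (edgeR adjusted p = 8.17e-05).

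The region of Adad1 held a T cell cytokine gene raised more than Adad1 itself. Il2, the gene of the T cell growth factor interleukin 2, lies 9.20 kb away. Its RNA was at 4.04, 3.21 and 3.60 CPM at rest and at 169, 215 and 260 CPM after stimulation, a log2 change of 5.89 ± 0.25 (edgeR adjusted p = 4.29e-07). It had 42 stimulated footprints against 8.91 expected. On the other side 4932438A13Rik, 10.6 kb from Adad1, was at -0.57 ± 0.20 (edgeR adjusted p = 0.122). Its adjusted p ranged from 7.04e-06 to 0.427 over 12 alternatives. Bbs12, 201 kb from Adad1 on the side of Il2, rose by 1.17 ± 0.16 (edgeR adjusted p = 0.00151).

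**Figure D5:**
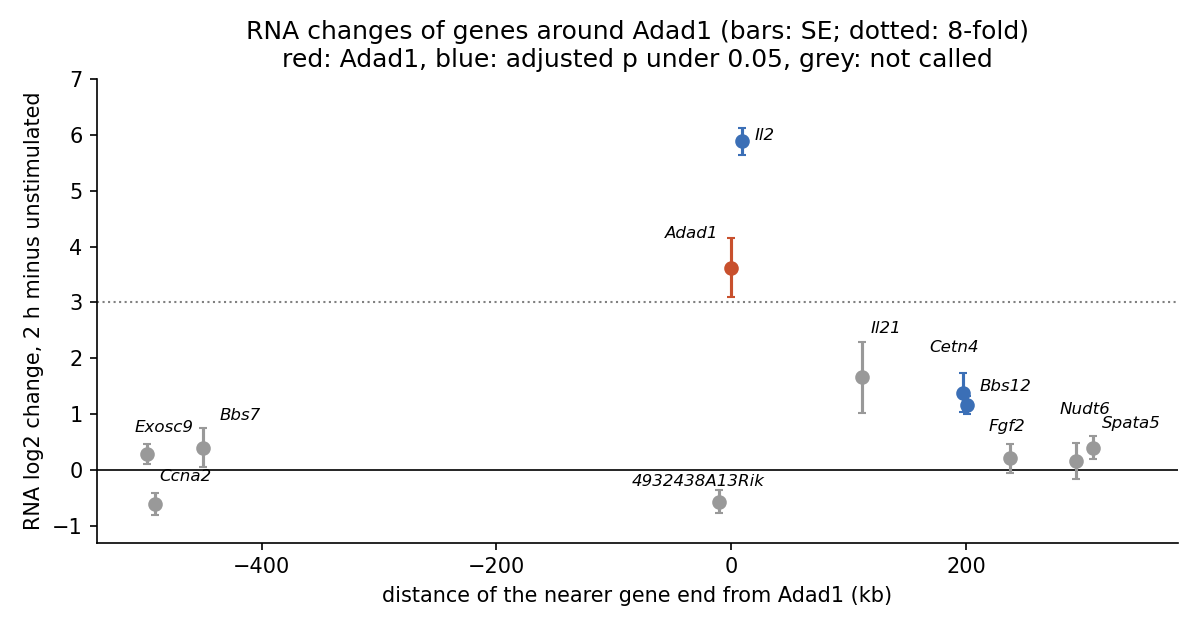
RNA log2 change (with standard error) of the genes described within 500 kb of Adad1 against the distance of their nearer end in kb. Adad1 is red, genes with an adjusted p under 0.05 are blue and the others grey, and the dotted line marks 8-fold. Il2, 9.20 kb away, lies above it with Adad1.

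The genes with RNA profiles most like the 8 were found over the 6 RNA libraries among 15675 tested genes with at least 1 CPM in stimulated RNA. Likeness was the root mean square difference, in log2(CPM + 0.5), from the median profile of the 8 genes, each profile centred on its own mean. The closest were 1810010D01Rik at 0.386, Axin2 at 0.452, Fam20a at 0.563, Ifng at 0.578 and Il3 at 0.609. The 8 genes themselves were at 0.300 (Pou4f1) to 1.53 (Rps6ka2) from their median. Ifng had 110 footprints against 70.0 expected, Fam20a 4 against 10.3 and Axin2 0 against 19.3. The close RNA profiles of these genes thus did not go with close footprint ratios. The cytokine gene Il3 and 1810010D01Rik had 0 against 0.376 and 0.520 expected, too few for a count of 0 to be informative.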

How the data were processed

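The deposited values are whole-number read counts per gene for 6 RNA and 5 footprint libraries, raw counts with no normalization. The authors aligned reads with STAR 2.5 to mm10 (GRCm38), per the submitters' processing notes. The tables are named by the authors as coding-sequence counts. The counting tool, the annotation release, and the handling of strands and multiply mapped reads are not given in the sources used here, so overlapping genes may share reads. Positions and promoters came from RefSeq GRCm38.p6. Symbols came from a separate list of gene names matched by Ensembl identifier, which named 21838 of the 21957 genes.

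RNA and footprints were each fitted with the quasi-likelihood test of edgeR 4.0.16 in R 4.3.3 over all genes (TMM scaling, minimum count 10, minimum total 15, Benjamini-Hochberg adjusted p under 0.05, two-sided), and the fits were tested on simulated data. Levels are TMM-scaled CPM. Alternatives were DESeq2 1.42.0, RLE scaling, library totals, no filter, the replicate number as a block, each library or member left out, and other RNA shares. Leaving out the 3 libraries with most receptor RNA, the 500 kb window, the count of called neighbours under each alternative and the sum over genes with a footprint were chosen after seeing the data. Leaving out those 3 libraries kept only replicate 3 in the stimulated RNA group.

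The members and gene lists were chosen with earlier results of these data known. Named besides the 8 genes are relatives that passed or the most abundant per family, nearest neighbours, the 5 most abundant other raised genes and the 5 closest profiles. Socs1, Bcl2l1, Bbs12, Sytl3, Cetn4, Rps6ka6, Rps6ka1, Rps6ka3, Emp3, Adar, Hoxd1, Hoxd10, Lif and the genes listed with 0 footprints were named after their values were seen. One gene is not reported here and was left out of the neighbours and closest profiles.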

Additional observations from a re-analysis of the deposited data

How the results depend on the processing

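The number of genes called in RNA, 1560 (677 higher, 883 lower), was 5220 with library totals, 2913 with DESeq2, 2404 with the replicate block and 7341 without the 3 libraries richest in receptor RNA. Leaving out 1 library gave 583 to 13024, the highest without unstimulated replicate 2 and the lowest without stimulated replicate 2. RLE scaling gave 334 higher and 1364 lower, no filter 410 and 1007. The cause was not tested. The 2 calls among relatives became 6, 1 and 4 with library totals, no filter and DESeq2, 0 to 25 with 1 library left out (25 without unstimulated replicate 2) and 3 with the block. Footprint calls, 24, became 11 without a filter, 4 with DESeq2 and 12 to 30 with 1 library left out, and 34 with the replicate block. The summed footprint ratio of the 8 genes, 0.128, moved to 0.520 without Rps6ka2 and was 0.0696 to 0.136 under the other settings, 0.119 with RNA libraries of the same number. The ratio of the other 30 raised genes, 0.141, moved to 1.25 without the RNA of Gm10800, Gm10801, Gm20594 and Lars2, 1.56 without Lars2 and 1.96 with only genes that had a footprint. The last of these settings leaves out every count of 0 and so can only raise the ratio. The log2 changes of the 8 genes kept their direction in 96 of 96 refits, lay between 3.38 and 8.05, and in 7 moved by more than the SD between replicates on the log2 scale. Same-numbered RNA libraries of the groups correlated at -0.788, 0.640 and 0.726 in their deviations from group means, and not every library correlated best with its own number. The highest correlation was 0.863, of unstimulated replicate 2 with stimulated replicate 1, both rich in receptor RNA. Since the libraries also differed in receptor RNA, this check cannot decide whether the replicate numbers pair the samples. Depth limits the footprints: only Rps6ka2 was expected to have more than 3.88 of them. Calls of Socs1, Bcl2l1, Bbs12 and Il2 held in all 12 alternatives run for each, while those of Sytl3 and Cetn4 were lost in 7 and 5. The 12 calls among neighbours (9 higher, 3 lower) became 6 and 3 with RLE scaling, 9 and 10 with library totals, 5 and 3 without a filter, and 6 and 7 with DESeq2.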
